A study of Mus musculus with 15 samples.

Results

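Expression of 36 cell cycle and DNA replication genes was examined in mouse liver across 3 diets. Every probe set that the array's annotation assigns to 1 of these gene symbols was taken, whatever its values. That gave 86 probe sets for 35 genes, of 18193 genes with a probe set of a single symbol, and Ccnb1 had no such probe set. The livers came from male C57BL/6J mice aged 8 weeks at the start and fed for 12 weeks. The 3 groups had 5 mice each, given a CL diet to which β-cryptoxanthin was added (CL+CX), the CL diet alone (CL) or a standard chow (NC). In the CL diet sodium cholate made up 0.5%, cholesterol 1.25% and cocoa butter 60%. CL and CL+CX mice therefore shared the added fat, cholesterol and bile salt, and NC mice were fed none of these additions. β-Cryptoxanthin, a carotenoid, was 0.003% of the CL+CX diet by the treatment text and the methods and 0.005% by the sample titles. RNA of each whole liver was hybridized to 1 Affymetrix GeneChip array of the mouse genome, and no label gives a batch.

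A resting liver cell that enters the cycle first makes D-type cyclins, which bind the kinase CDK4 and release E2F transcription factors from the retinoblastoma protein. E2F factors raise the genes of the S phase, among them the MCM proteins, which form the ring that unwinds DNA, and the enzymes that make deoxynucleotides. Genes of mitosis follow, many of them under FOXM1. In adult liver few hepatocytes divide, and immune cells and other cells that enter the tissue can divide too. Mki67 and Top2a are the usual markers of dividing cells.

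Signals were scaled to a common 75th percentile and are given as log2 of the scaled signal, in the order of mouse 1 to mouse 5 of a diet. Scaled array medians lay between 3.50 and 3.76 on this scale. A probe set was tested if it reached its array's median on all 5 arrays of at least 1 diet, and it is called too dim to judge otherwise. Array CL 2 stood apart from its group, with a mean correlation of 0.941 with the other CL arrays, against 0.957 to 0.962 for the other 4. Markers of macrophages moved with diet, and all 12 tested of 14 listed were higher in CL than in NC livers, with Adgre1, Cd68, Csf1r and Clec4f among them. Their summed level ranged from 11.2 to 12.4 in CL+CX, from 12.8 to 13.2 in CL and from 10.2 to 11.4 in NC livers (log2), and 7 of the 12 were lower in CL+CX than in CL livers. Of 7 hepatocyte markers tested, 3 (Tat, Hnf4a and Apob) were lower in CL than in NC livers. Of T and NK cell markers, Cd3g and Nkg7 were tested of 11 listed and both were higher in CL than in NC livers. Both passed the filter through CL livers, where they are high, so their direction is not support. Nkg7 was below the array median in all NC livers and at least 1.78-fold higher in CL than in NC livers. The same comparison called 1 of 7 stellate cell markers (14.3%) and no endothelial, B cell, neutrophil, erythroid or biliary marker tested. Of all 10525 genes tested, 14.0% were called for CL against NC, at an adjusted p under 0.05. The shares were 3.26% for CL+CX against CL and 9.96% for CL+CX against NC. Between CL+CX and CL livers, all 7 endothelial markers had lower means in CL+CX, with Clec4g called (log2 difference -0.83, adjusted p = 0.0350), and the 1 biliary marker tested, Sox9, was lower in CL+CX (log2 difference -1.13, adjusted p = 0.0141). Against NC livers the 7 endothelial means were also lower in CL+CX, with Lyve1 called (log2 difference -1.40, adjusted p = 0.0106). The β-actin 3′ over 5′ difference, a measure of RNA integrity, was 1.07 ± 0.101 in CL+CX, 0.82 ± 0.0968 in CL and 0.94 ± 0.0859 in NC livers (log2, SD, n = 5 each). The β-actin difference ran from 0.949 to 1.17 in CL+CX and from 0.699 to 0.945 in CL livers, so these 2 diets did not overlap. The part of these differences between diets in the results that follow was not tested unless a value is given.

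Of the 86 probe sets, 33 were tested and 53 were too dim. Of the 35 genes with a probe set, 17 were bright enough to test. These were 10 of the 11 replication genes, 3 of the 5 cyclin D and E pathway genes, 3 of the 5 regulators and 1 of the 14 mitotic genes. Among the 17, Ccnd2, Cdc20, Plk2, Mcm2, Mcm3, Mcm5, Mcm6, Rrm1 and Cdkn1b also had probe sets too dim to judge. Between CL and NC livers, Ccnd1, Plk2, Mcm3 and Mcm5 were higher and Tk1 was lower in CL, at an adjusted p under 0.05 (limma with Benjamini-Hochberg adjustment over 20361 probe sets). That is 5 of 17 genes, where 14.0% of all 10525 genes tested were called, 7.20% as higher and 6.76% as lower. The median log2 difference of the 17 was 0.34, against -0.08 over all genes. Between CL+CX and CL livers, Plk2 was lower in CL+CX, and no other of the 17 was called, where 3.26% of all genes were called, 1.48% as higher and 1.78% as lower. Between CL+CX and NC livers, Ccnd1 and Mcm5 were higher and Tk1 and Cdkn2c were lower in CL+CX, where 9.96% of all genes were called, 5.11% as higher and 4.85% as lower. The median of the 17 was -0.11 for CL+CX against CL, where that of all genes was 0.02, and 0.11 for CL+CX against NC, where that of all genes was -0.04. With all 3 diets tested together, 5 of the 17 were called, where 16.6% of all genes were. The comparisons share their mice, so they are not separate evidence. These are whole livers, so a change in the number of cells of a type and a change in RNA per cell cannot be told apart.

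**Figure D1:**
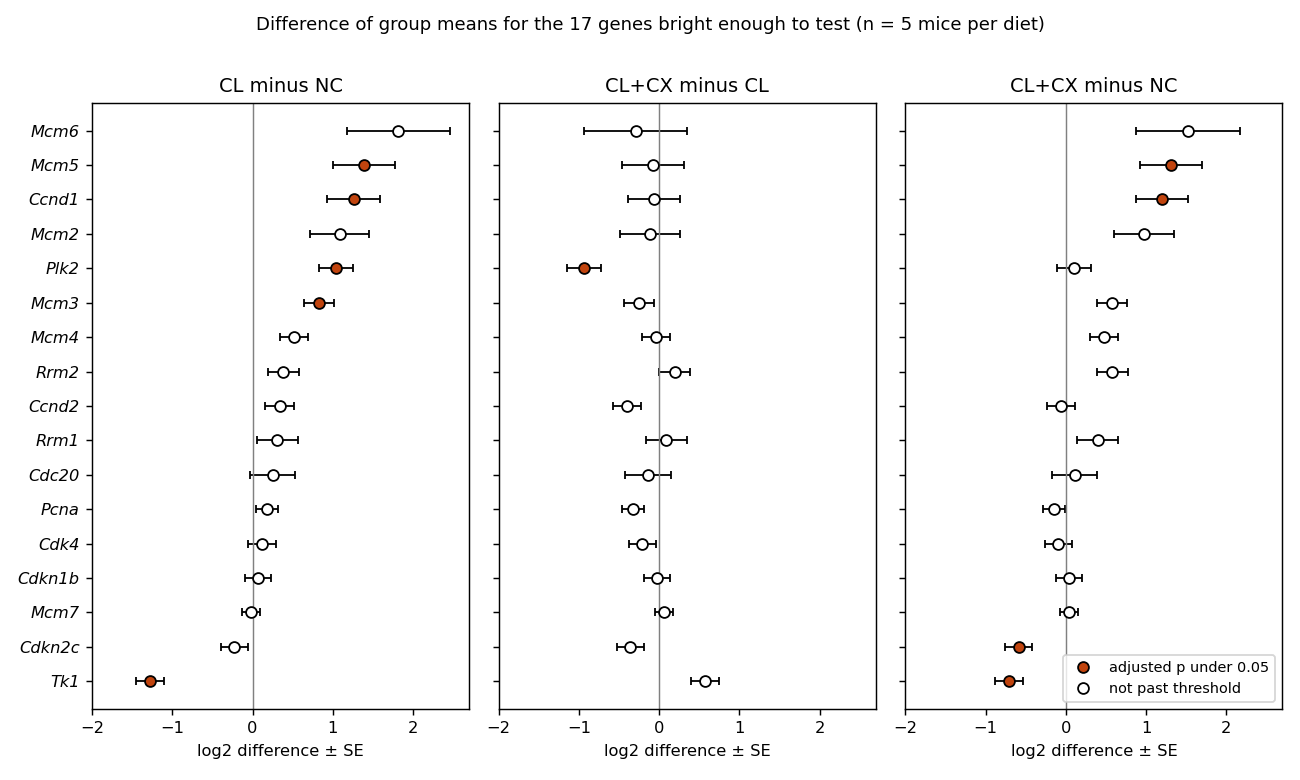
Log2 differences of group means with their standard errors (x axis) for the 17 genes bright enough to test (y axis), in 3 panels for the 3 comparisons (n = 5 mice per diet). Filled points passed an adjusted p of 0.05: 5 genes for CL minus NC, Plk2 alone for CL+CX minus CL, and 4 genes for CL+CX minus NC.

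The MCM genes encode the 6 subunits of the replicative helicase. Of the 6, 5 had higher means than NC in both CL+CX and CL livers, and Mcm3 and Mcm5 passed the test in CL. Mcm3, Mcm5 and Mcm6 passed the filter through CL+CX and CL livers, where they are high. The count of higher means is therefore a description and not support. Promoters of Mcm5, Mcm6, Mcm3 and Mcm2 are shown, which are those of the 5 that matched RefSeq's table. The windows below are RefSeq sequence of GRCm38.p6, written on the strand of the gene, and capitals mark matches to an E2F motif (TTCCCGC or TTGGCGC on either strand) or, in Mcm2, which holds no E2F match, to the CHR motif (TTTGAA on either strand). Mcm5 lies on the plus strand at chr8:75109339-75109488, Mcm6 on the minus strand at chr1:128359676-128359825, Mcm3 on the minus strand at chr1:20820283-20820432 and Mcm2 on the minus strand at chr6:88898751-88898900.
Mcm5: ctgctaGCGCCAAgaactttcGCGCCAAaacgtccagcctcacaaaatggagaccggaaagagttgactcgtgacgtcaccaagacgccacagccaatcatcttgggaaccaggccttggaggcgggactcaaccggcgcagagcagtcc
Mcm6: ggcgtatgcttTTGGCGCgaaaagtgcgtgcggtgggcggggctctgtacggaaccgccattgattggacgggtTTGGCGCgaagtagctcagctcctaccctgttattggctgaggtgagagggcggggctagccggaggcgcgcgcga
Mcm3: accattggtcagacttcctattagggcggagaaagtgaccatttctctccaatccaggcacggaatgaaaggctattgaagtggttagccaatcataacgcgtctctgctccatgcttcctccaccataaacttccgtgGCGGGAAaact
Mcm2: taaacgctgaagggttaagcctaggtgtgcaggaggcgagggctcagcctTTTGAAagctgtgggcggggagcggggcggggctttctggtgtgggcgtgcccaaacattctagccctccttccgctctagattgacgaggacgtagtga
In windows of 250 bases before to 50 after the start, 29 of the 36 genes matched a RefSeq entry, with 31 windows, and 32.3% of these windows held the E2F motif, against 6.81% of all 32851 windows. Among replication genes 5 of 10 held it (Mcm3, Mcm5, Mcm6, Mcm7 and Rrm1), so it stood both in MCM genes with higher means and in Mcm7, whose means lay close together. The CHR motif stood in 32.3% of the windows, against 17.9% of all windows, and in 9 of 13 mitotic genes. CCAAT stood in 71% of the windows, against 37.4% of all windows. A match is a description of the sequence and not a site of binding.

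Mcm3 was higher in CL livers. Its signals were 4.04, 4.35, 4.15, 4.49 and 4.89 in CL+CX, 4.37, 4.81, 4.52, 4.87 and 4.64 in CL and 3.42, 3.90, 3.69, 4.37 and 3.67 in NC livers. NC 4 reached the lowest CL mouse, and the other 4 NC mice lay below all CL mice. Mcm3 reached the array median on 4 of 5 NC arrays and passed the filter through the CL+CX and CL livers, where it is high. Without the filter its CL call held. The difference between CL and NC was 0.83 (standard error 0.19, adjusted p = 0.00957), or 1.78-fold, a call lost with the methods' test. That is a one-way test of the 3 diets with a post hoc comparison, and the larger of its adjusted one-way p and its post hoc p, given here and below, was 0.0638. CL+CX exceeded NC by 0.57 (adjusted p = 0.0643), which missed the threshold. Without NC 4, the highest NC mouse, the difference was 0.71, and no p is given because leaving that mouse out widens it. CL+CX differed from CL by -0.26 (adjusted p = 0.485). Of the 5 Mcm3 probe sets, 1 was tested. The others were too dim, and without the filter gave 0.02, 0.85, -0.15 and 1.16 for CL against NC, none called.

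Mcm5 was below the array median in all 5 NC livers, so only a lower bound on its change can be given. Signals were 4.05, 3.76, 4.28, 4.31 and 5.05 in CL+CX, 4.84, 3.95, 3.82, 5.59 and 3.67 in CL and 3.23, 2.19, 3.59, 3.64 and 2.26 in NC livers. Every CL+CX and every CL mouse lay above every NC mouse. A bound sets the mean of the brighter diet against the mean of the NC array medians, both on the log2 scale. Mcm5 was at least 1.69-fold higher in CL than in NC livers (adjusted p = 0.0295) and at least 1.60-fold higher in CL+CX than in NC livers (adjusted p = 0.0452). The dim Mcm5 probe sets gave -1.84 (adjusted p = 0.101) and 0.97 (adjusted p = 0.619) for CL against NC without the filter. Its only tested probe set is of the _x_at type, which by the array maker's naming has probes shared with other transcripts. It passed the filter through the CL+CX and CL livers, where it is high, and without the filter neither call held (adjusted p = 0.104 for CL and 0.147 for CL+CX). The CL call was also lost with the methods' test (0.112), in a fit of 2 diets only (adjusted p = 0.0518), with the β-actin difference as a covariate (adjusted p = 0.0854) and on leaving out CL 1, CL 4, NC 2 or NC 5 (adjusted p up to 0.0764). The CL+CX call was also lost with 16 added to each signal before the log (adjusted p = 0.0673), with the methods' test (0.112), with the β-actin covariate (adjusted p = 0.161) and on leaving out any CL+CX mouse or any of NC 1, NC 2, NC 5, CL 1 and CL 3 (adjusted p up to 0.107).

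Mcm2, Mcm4 and Mcm6 had higher means in CL than in NC livers and missed the threshold. Mcm2 signals were 5.28, 5.57, 5.37, 3.76 and 5.57 in CL+CX, 4.58, 4.90, 4.83, 6.54 and 5.24 in CL and 3.82, 3.73, 4.40, 4.40 and 4.32 in NC livers. CL and NC mice did not overlap, and CL+CX 4 lay far below the other CL+CX mice, among the NC mice. The Mcm2 difference between CL and NC was 1.08 (adjusted p = 0.0708). Leaving out CL+CX 4, which enters only the shared estimate of spread, kept the difference at 1.08. No p is given, because leaving out that outlying mouse narrows the spread. Mcm2 in CL+CX stood at 0.97 against NC (adjusted p = 0.107) with all mice. Without CL+CX 4, the lowest CL+CX mouse, it was 1.31, and no p is given because leaving that mouse out widens the difference.

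Mcm6 showed the widest spread of the 17 genes in NC livers. Its signals were 4.70, 3.71, 3.94, 4.36 and 5.21 in CL+CX, 5.50, 3.70, 4.89, 4.91 and 4.38 in CL and 4.17, 3.83, 4.46, 0.76 and 1.09 in NC livers. NC 4 and NC 5 were near the floor, and the other 3 NC mice fell inside the CL range. Mcm6 reached the array median on 3 of 5 NC arrays and passed the filter through CL+CX and CL livers, where it is high. The difference of 1.82 between CL and NC (standard error 0.65, adjusted p = 0.0796) missed the threshold. Without NC 3, the highest NC mouse, it was 2.22, and no p is given because leaving that mouse out widens the difference. Mcm4 differed by 0.51 (adjusted p = 0.0693) between CL and NC and by 0.48 (adjusted p = 0.0954) between CL+CX and NC. Leaving out CL 1 widened the first of these to 0.62, and for the same reason no p is given. The second tested Mcm4 probe set gave 1.03 for CL+CX against NC (adjusted p = 0.0221).

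Mcm7 did not follow the other subunits. Its signals lay between 6.71 and 6.98 in CL+CX, between 6.68 and 6.86 in CL and between 6.52 and 7.02 in NC livers. Over its 4 tested probe sets the difference between CL and NC ran from -0.05 to 0.05, with standard errors of 0.11 to 0.17. None passed in any comparison.

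**Figure D2:**
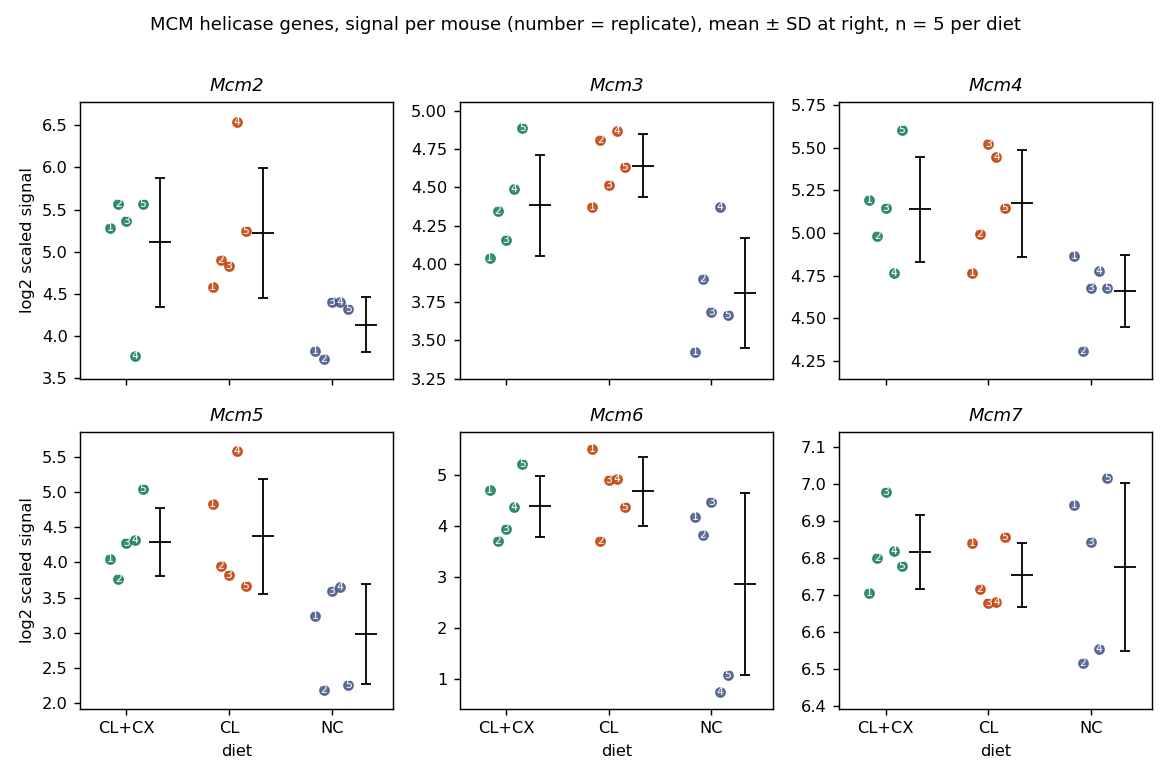
Log2 scaled signal (y axis, with a scale of its own in each panel) of the 6 MCM genes in each mouse, by diet (x axis: CL+CX, CL, NC). Points carry the replicate number and bars give the mean ± SD (n = 5). NC mice of Mcm5 all lie below the CL+CX and CL mice, NC 4 and NC 5 of Mcm6 lie near 1, and the Mcm7 groups overlap.

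Tk1, thymidine kinase of the DNA precursor salvage route, moved against the MCM genes. Its promoter, on the minus strand at chr11:117825985-117826134 (GRCm38.p6, RefSeq), is shown as that of the called gene that went the other way. Neither E2F motif is in these letters, so it has no capitals.
Tk1: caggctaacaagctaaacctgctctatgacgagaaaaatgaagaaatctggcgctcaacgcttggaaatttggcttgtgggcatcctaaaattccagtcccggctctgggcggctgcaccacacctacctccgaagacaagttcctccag
Tk1 signals were 5.79, 5.77, 6.14, 5.33 and 5.63 in CL+CX, 4.65, 5.52, 5.32, 5.21 and 5.11 in CL and 6.12, 6.35, 6.72, 6.55 and 6.48 in NC livers. All CL mice lay below all NC mice, and of the CL+CX mice only CL+CX 3 reached the lowest NC mouse. Tk1 fell by 1.28 on the log2 scale in CL livers against NC livers (standard error 0.18, adjusted p = 0.000328), which is 2.43-fold lower. It was 1.64-fold lower in CL+CX than in NC livers (log2 difference -0.71, adjusted p = 0.0201), a call lost without CL+CX 4 or NC 3 (adjusted p = 0.0512 and 0.0507), with no filter (adjusted p = 0.0844), with signals as deposited (adjusted p = 0.0717) and with the β-actin covariate (adjusted p = 0.0671). CL+CX exceeded CL by 0.57 (adjusted p = 0.0888), which missed the threshold. It passed with a stricter filter on dim probe sets (adjusted p = 0.0452), and by the methods' test (0.0198). The fall in CL kept its call under all 26 alternatives, between -1.37 and -0.97. Tk1 lies head to head with Afmid, kynurenine formamidase, in RefSeq, and Afmid was looked up after its neighbour's values were seen. Afmid was also lower in CL than in NC livers, with -0.87 on the log2 scale (SE 0.22, adjusted p = 0.0191), and 2 other tested Afmid probe sets gave -0.74 (adjusted p = 0.0577) and -0.53 (adjusted p = 0.261).

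The other DNA precursor and fork genes were not called. Pcna, the sliding clamp of DNA polymerase, averaged 8.12 ± 0.0913 in CL+CX, 8.45 ± 0.258 in CL and 8.27 ± 0.221 in NC livers (SD, n = 5 each). It differed by 0.18 between CL and NC (adjusted p = 0.427) and by -0.33 between CL+CX and CL (adjusted p = 0.197). Rrm2, the regulated subunit of ribonucleotide reductase, was 0.58 above NC in CL+CX livers (adjusted p = 0.0688) with no overlap of the groups. Leaving out CL 2 kept this difference at 0.58. No p is given, because that mouse enters only the shared estimate of spread and leaving it out narrows it. The other Rrm2 probe sets stood at 0.11 and 0.07. Rrm1, the large subunit, gave 0.31 by its brightest probe set and -0.50 by the other tested one for CL against NC. Neither was called (adjusted p = 0.477 and 0.152). Tyms, thymidylate synthase, was too dim in all 4 of its probe sets.

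Ccnd1, cyclin D1, was higher in both CL diets than in chow. Its signals were 6.83, 6.87, 6.98, 7.36 and 7.01 in CL+CX, 7.89, 5.54, 6.96, 7.83 and 7.16 in CL and 5.78, 5.97, 6.05, 5.65 and 5.63 in NC livers. CL+CX and NC mice did not overlap. CL 2 lay below every NC mouse, while the other 4 CL mice lay above all NC mice. CL exceeded NC by 1.26 (standard error 0.33, adjusted p = 0.0212), or 2.39-fold. Without CL 2 the difference was 1.64, and no p is given because leaving that mouse out widens it. CL+CX exceeded NC by 1.20 (standard error 0.33, adjusted p = 0.0322), or 2.29-fold. CL+CX and CL differed by -0.06 (standard error 0.33, adjusted p = 0.944), and by -0.45 without CL 2 (adjusted p = 0.210). All 3 Ccnd1 probe sets were called in both comparisons with NC. The CL call was lost on leaving out CL 1 or CL 4 (adjusted p = 0.0547 and 0.0556), with no filter (adjusted p = 0.0818), in a fit of 2 diets only (adjusted p = 0.0510) and with the β-actin covariate (adjusted p = 0.0785). The CL+CX call was lost on leaving out any CL+CX mouse or any NC mouse but NC 3 (adjusted p up to 0.0736), with no filter (adjusted p = 0.116) and with the β-actin covariate (adjusted p = 0.111).

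Ccnd2, cyclin D2, depended on the probe set. The brightest was not called, at 0.34 for CL against NC (adjusted p = 0.240). Of the other 4 tested, 3 were called, at 0.92 (adjusted p = 0.0150), 0.66 (adjusted p = 0.00856) and 0.66 (adjusted p = 0.0332). The fourth gave 0.65 (adjusted p = 0.132). The probe set at an adjusted p of 0.00856 read 5.42, 5.82, 5.60, 5.75 and 5.73 in CL+CX, 6.57, 5.82, 5.89, 6.01 and 5.92 in CL and 5.63, 5.30, 5.50, 5.16 and 5.30 in NC livers. CL and NC mice did not overlap on it. No Ccnd2 probe set was called between CL+CX and CL or between CL+CX and NC.

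Cdk4, the kinase that D-type cyclins activate, was not called by its brightest probe set, at 0.12 for CL against NC (adjusted p = 0.700). One of its other probe sets passed narrowly, at 0.37 (adjusted p = 0.0494), and the third gave -0.03. Ccne1 and Ccne2, the E-type cyclins of S phase entry, were too dim. The brighter Ccne1 probe set reached the array median on 3 CL+CX, 1 CL and 4 NC arrays and the other on 4 CL+CX, 4 CL and 3 NC arrays. Ccne2 reached it on 2 of each diet.

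**Figure D3:**
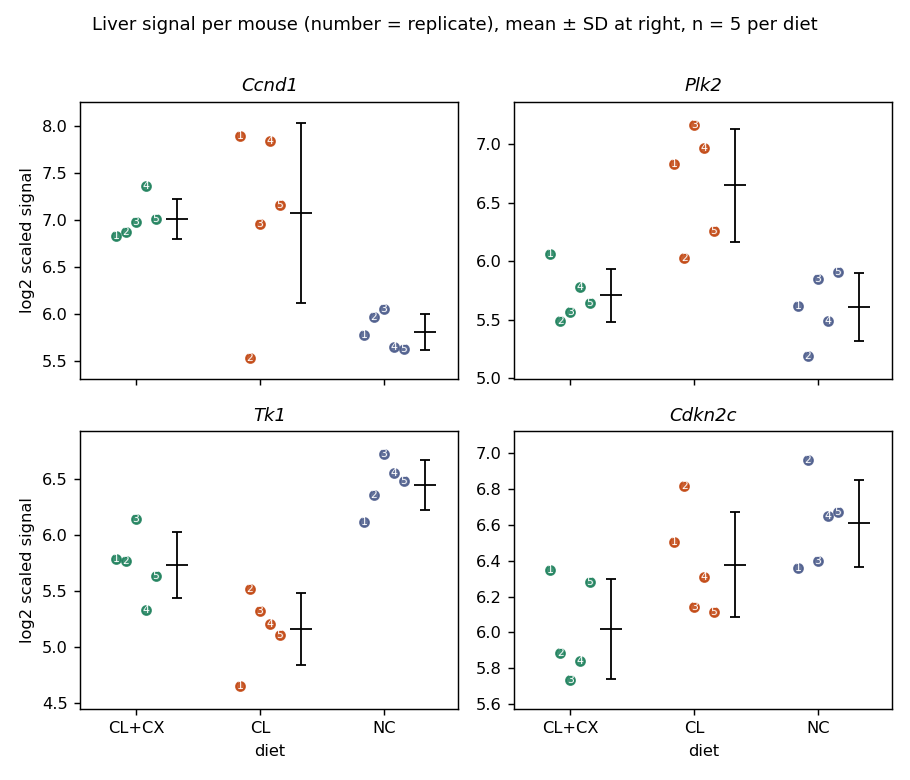
Log2 scaled signal (y axis, with a scale of its own in each panel) of Ccnd1, Plk2, Tk1 and Cdkn2c in each mouse, by diet (x axis: CL+CX, CL, NC). Points carry the replicate number and bars give the mean ± SD (n = 5). CL 2 lies below all NC mice for Ccnd1, and all 5 CL mice lie below all NC mice for Tk1.

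**Figure D4:**
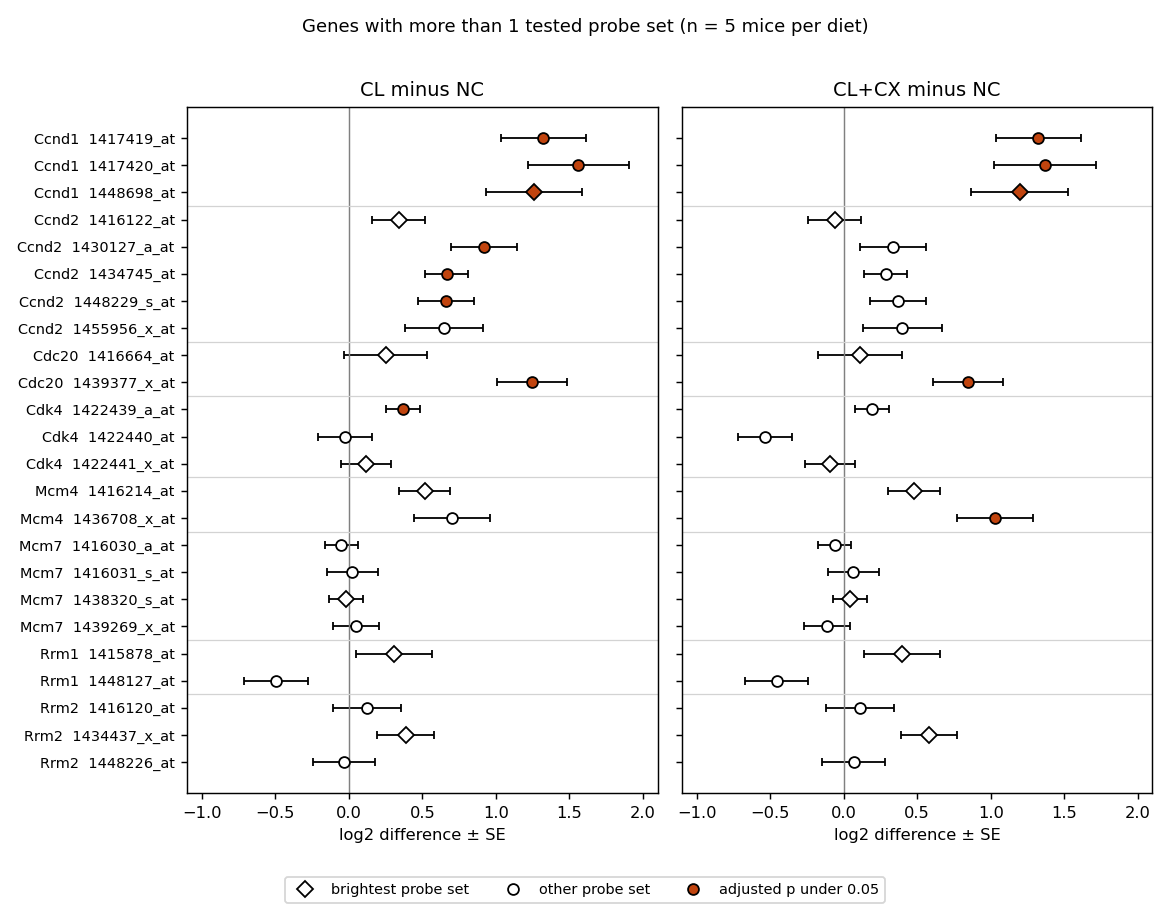
Log2 differences with standard errors (x axis) of every tested probe set of the 8 genes with more than 1 (y axis), for CL minus NC and CL+CX minus NC (n = 5 mice per diet). Diamonds mark the brightest probe set of a gene and filled marks an adjusted p under 0.05; the 3 Ccnd1 probe sets stand together, and those of Ccnd2, Cdc20, Cdk4 and Mcm4 differ in call.

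Plk2, a polo-like kinase of early G1 phase and of stress responses, was the only gene of the 17 that limma called between CL+CX and CL. Its signals were 6.06, 5.49, 5.57, 5.78 and 5.64 in CL+CX, 6.83, 6.03, 7.17, 6.97 and 6.26 in CL and 5.61, 5.19, 5.85, 5.49 and 5.91 in NC livers. CL mice lay above all NC mice. CL+CX mice lay among the NC mice except CL+CX 1, which exceeded CL 2 by a small margin. CL livers held 2.06-fold more Plk2 RNA than NC livers (log2 difference 1.04, standard error 0.21, adjusted p = 0.00520), a call lost with the methods' test (0.0730). In CL+CX livers it was 1.92-fold lower than in CL livers (log2 difference -0.94, standard error 0.21, adjusted p = 0.0294). CL+CX and NC differed by 0.10 (standard error 0.21, adjusted p = 0.801). With the β-actin difference as a covariate the change between CL+CX and CL was -0.70 (adjusted p = 0.911), and none of the 17 genes was called or had an unadjusted p under 0.05 in that comparison. That fit called 1 of all 20361 probe sets there (0.00491%). The β-actin difference does not overlap between these 2 diets, so that fit cannot separate it well from diet. The Plk2 call was also lost with no filter (adjusted p = 0.141), with signals as deposited (adjusted p = 0.125) and in a fit of these 2 diets only (adjusted p = 0.0571), and by the methods' test (0.0730). The same happened on leaving out CL 1, CL 3, CL 4 or any CL+CX mouse but CL+CX 1, with adjusted p up to 0.0874. Macrophage markers, Clec4g and Sox9 were also lower in CL+CX than in CL livers, and their part in the Plk2 difference was not tested. The other Plk2 probe set was too dim. Without the filter it gave -1.57 for CL against NC (adjusted p = 0.396) and 0.92 for CL+CX against CL (adjusted p = 0.753).

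Cdkn2c and Cdkn1b encode inhibitors of cyclin-dependent kinases. Cdkn2c signals were 6.35, 5.89, 5.74, 5.84 and 6.28 in CL+CX, 6.51, 6.82, 6.14, 6.31 and 6.11 in CL and 6.36, 6.96, 6.40, 6.65 and 6.67 in NC livers. CL+CX and NC mice did not overlap, by a narrow margin between CL+CX 1 and NC 1. Cdkn2c was 1.50-fold lower in CL+CX than in NC livers (log2 difference -0.59, standard error 0.17, adjusted p = 0.0402). CL stood between them, at -0.23 against NC (adjusted p = 0.415), and CL+CX differed from CL by -0.36 (adjusted p = 0.256). Leaving out any of CL+CX 2, 3 and 4 and NC 2, 4 and 5 lost the call, with adjusted p up to 0.0972, as did no filter (adjusted p = 0.141), signals as deposited (adjusted p = 0.305), the methods' test (0.110) and the β-actin covariate (adjusted p = 0.282). Cdkn1b differed by at most 0.06 between any diets and was not called. The transcription factors E2f1 and Foxm1 were too dim, and Foxm1 reached the array median on 1 CL+CX, 4 CL and 2 NC arrays.

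Cdkn1a, the inhibitor p21, is outside the 36 genes, and its change was larger than that of any of the 17 between CL+CX and CL. Its signals were 5.91, 5.35, 4.93, 6.56 and 5.45 in CL+CX, 7.28, 7.92, 7.26, 7.99 and 7.70 in CL and 7.37, 8.55, 6.56, 7.33 and 7.43 in NC livers. CL+CX mice lay below all CL mice, and CL+CX 4 stood just above the lowest NC mouse, NC 3. Against CL livers Cdkn1a was 3.97-fold lower in CL+CX livers (log2 difference -1.99, standard error 0.33, adjusted p = 0.0100) and against NC livers 3.50-fold lower (adjusted p = 0.00435). The alternatives used for the 17 genes are not given for Cdkn1a. The β-actin difference does not overlap between CL+CX and CL livers, and its part in the Cdkn1a change was not tested.

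The mitotic genes were too dim to judge, with 1 exception. Cdc20, an activator of the anaphase ubiquitin ligase, was tested by 2 probe sets. The brighter gave 0.25 for CL against NC (adjusted p = 0.620). The other read 5.25, 4.04, 4.05, 4.08 and 4.18 in CL+CX, 4.94, 4.28, 4.65, 4.78 and 4.97 in CL and 3.80, 3.27, 3.89, 2.98 and 3.44 in NC livers. On that probe set every CL+CX and CL mouse lay above every NC mouse, with differences of 0.85 (adjusted p = 0.0363) for CL+CX and 1.25 (adjusted p = 0.00367) for CL. This probe set is of the _x_at type and reached the array median on 2 of 5 NC arrays. It passed the filter through the CL+CX and CL livers, where it is high, so its calls are a description and not support.

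Too dim were Mki67, Top2a, Ccna2, Ccnb2, Cdk1, Aurka, Aurkb, Birc5, Bub1, Bub1b, Plk1, Racgap1 and Nusap1, with Ccne1, Ccne2, Tyms, E2f1 and Foxm1 from the other groups, 18 in all. Taking the brightest probe set of each, the signal reached its array's median in 28 of 90 cases (31.1%) in CL+CX, 42 of 90 (46.7%) in CL and 15 of 90 (16.7%) in NC livers. The brightest probe sets of all 7668 genes with no tested probe set reached it in 11.4% of cases in CL+CX, 13.0% in CL and 13.4% in NC livers. Over all 38 probe sets of the 18 genes the shares were 17.9% in CL+CX, 28.4% in CL and 10.5% in NC livers, where all 11407 probe sets of such genes gave between 8.62% (CL+CX) and 10.2% (NC). More CL than NC arrays reached the median for 12 of the 18 genes and fewer for 1, Ccne1, whose other probe set went the other way. The same count was not made over all genes with no tested probe set. Per mouse, 6, 7, 2, 4 and 9 of the 18 reached it in CL+CX, 8, 3, 10, 11 and 10 in CL and 2, 2, 5, 4 and 2 in NC livers. CL 2 was the only CL mouse inside the NC range. Aurkb, Bub1, Bub1b and Tyms reached the median on no array.

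**Figure D5:**
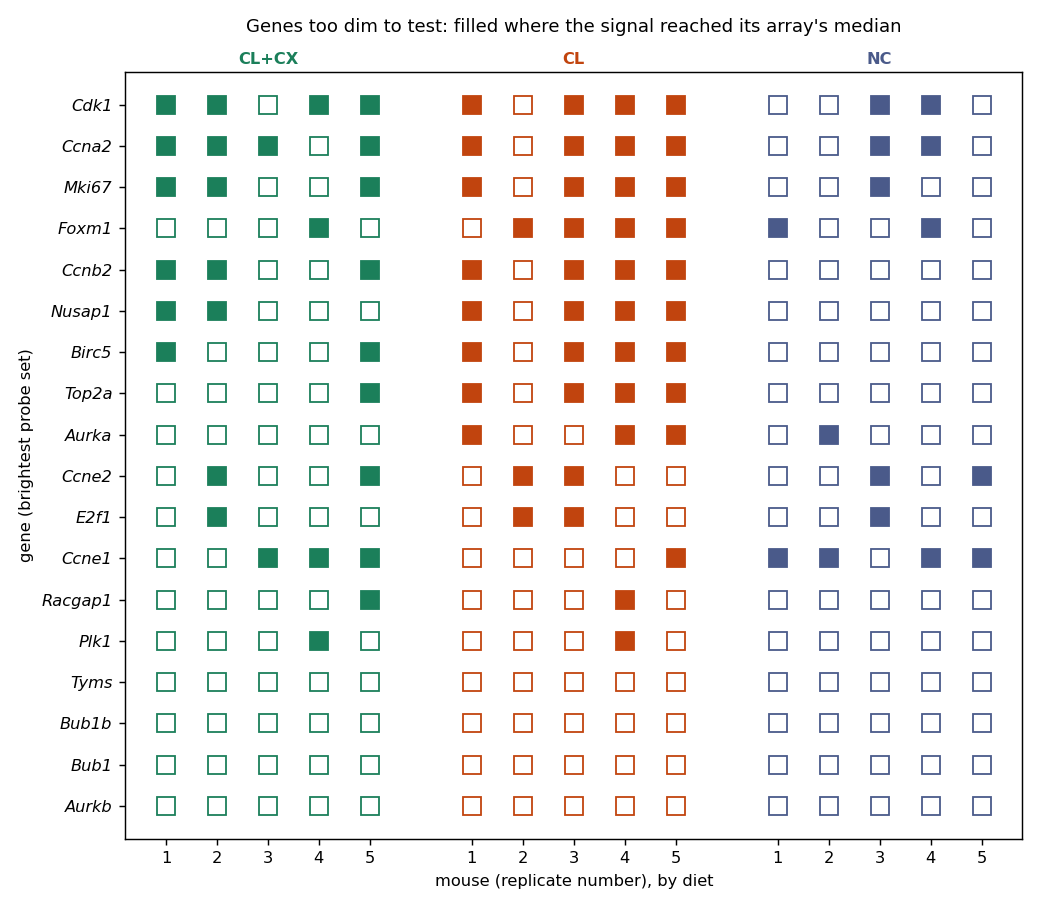
The 18 genes too dim to test (y axis) in each of the 15 mice, by diet and replicate number (x axis). A filled square is a signal at or above the array's median and an open square a signal below it: 28 of 90 squares are filled in CL+CX, 42 in CL and 15 in NC, and CL 2 is open for most genes that are filled in the other CL mice.

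Mki67, the marker of dividing cells, read 4.34, 3.90, 2.12, 2.89 and 4.32 in CL+CX, 4.28, 3.56, 4.11, 4.94 and 3.80 in CL and 0.24, 3.56, 3.85, 2.17 and 0.12 in NC livers. NC 3 fell inside the CL range, NC 2 lay at its lower edge, and NC 1 and NC 5 were near the floor. Tested without the filter on low signals, Mki67 gave an adjusted p of 0.149 for CL against NC. Top2a, the topoisomerase that untangles chromosomes, read 3.69, 2.71, 2.19, 2.84 and 3.85 in CL+CX, 4.23, 1.26, 4.07, 4.23 and 3.78 in CL and 2.62, 0.00, 2.85, 2.57 and 0.75 in NC livers. Of the CL mice, CL 2 alone lay among the NC mice, and without the filter the adjusted p was 0.216.

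Birc5, survivin of the chromosomal passenger complex, read 4.63, 2.41, 3.67, 3.46 and 3.61 in CL+CX, 3.69, 0.91, 3.67, 3.95 and 3.77 in CL and 0.00, 0.63, 0.23, 0.52 and 0.00 in NC livers. The groups did not overlap with NC. Birc5 was the only one of the 18 called without the filter, with an adjusted p of 0.0108 both for CL against NC and for CL+CX against NC. NC signals were below the array median on all 5 arrays and the CL and CL+CX means did not exceed the NC array medians, so no fold is given with all mice.

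Leaving out CL 2 let 8 of the 18 dim genes pass the filter, and 5 of these were called as higher in CL than in NC livers, where 18.9% of probe sets were called in that fit. The 5 were Mki67, Top2a, Ccna2, Birc5 and Nusap1. They passed the filter through the diet where they were high, and only once the CL mouse nearest to NC for Top2a and Birc5 was left out, so neither their number nor their test is support, and no p is given. As a description, Mki67 averaged 4.30 ± 0.479 in 4 CL livers and 2.00 ± 1.77 in 5 NC livers (SD). Ccna2, cyclin A2, averaged 4.66 ± 0.506 in 4 CL livers and 3.48 ± 0.315 in 5 NC livers (SD). None of the 8 was called by limma between CL+CX and CL, where 1 had an unadjusted p under 0.05.

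Other genes of the pathway were read from lists that do not overlap with the 36. Of 43 further replication genes 29 were tested. For CL against NC 4 of the 29 were called (13.8%), close to the 14.0% of all genes. Of the 4, Pola1, a DNA polymerase subunit, was higher by 1.44 (adjusted p = 0.0389), Rpa2, which coats single-stranded DNA, by 0.67 (adjusted p = 0.0203) and Dnmt1, the maintenance DNA methyltransferase, by 0.51 (adjusted p = 0.0409). Pola1 passed the filter through CL livers, where it is high, and its NC mean of 2.83 lay below the array medians. Rfc5, a clamp loader subunit, was lower (log2 difference -0.37, adjusted p = 0.0404). The median of the 29 was 0.08. Between CL+CX and CL limma called none of the 29, with 3 at an unadjusted p under 0.05, and the methods' test called none. Between CL+CX and NC, Rpa2 alone was called (3.45% of the 29, where 9.96% of all genes were), at 0.67 (adjusted p = 0.0237). Of 46 further mitotic genes 18 were tested, and Ube2c, a ubiquitin carrier of mitotic exit, was the only limma call in the 3 comparisons, at least 1.47-fold higher in CL than in NC livers (adjusted p = 0.0314). That is 5.56% of the 18, below the share of all genes. Ube2c was below the array median in all NC livers, so it passed the filter through a diet where it is high. Between CL+CX and CL none of the 18 had an unadjusted p under 0.05.

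A list of G1 phase genes and other regulators, with Cdkn1a, Wee1, Btg1, Ccng2 and Gadd45b among them, held 35 further genes. Of these 29 were tested. For CL against NC 3 were higher and 2 lower (17.2%, where 14.0% of all genes were called), for CL+CX against CL 2 were lower (6.90%, against 3.26%), and for CL+CX against NC 3 were higher and 4 lower (24.1%, against 9.96%). Rbl1, the retinoblastoma relative p107, was below the array median in all NC livers and at least 2.08-fold higher in CL (adjusted p = 0.00226). It too passed the filter through a diet where it is high. Ccng1, a p53 target, was higher by 0.82 in CL than in NC livers (adjusted p = 0.00127) and by 0.64 in CL+CX than in NC livers (adjusted p = 0.00947). Gadd45b, a stress-induced growth arrest gene, stood 1.92 lower in CL+CX than in NC livers on the log2 scale (adjusted p = 0.0386), with an SD of 1.53 among CL+CX mice.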

How the data were processed

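Mouse liver RNA was measured by the authors on 15 Affymetrix GeneChip arrays and summarised as MAS5 signals. What was deposited is 1 linear intensity for each probe set, unscaled and without detection calls. Here arrays were brought to the same 75th percentile (54.1), raised to a floor of 1 (11.3% of values) and log2 transformed. Array medians were 9.45 to 16.6 before scaling, and the number of arrays limits the precision. A probe set was tested if it reached its array's median on all 5 arrays of at least 1 diet, which stood in for the Present calls of the methods. Group means of the 3 diets were fitted together with limma 3.58.1 in R 4.3.3, with Benjamini-Hochberg adjustment over 20361 probe sets and a threshold of 0.05. The tested probe set with the highest mean stood for a gene, and probe sets with several symbols were not used. Figures and promoter searches used Python 3.11.15, pandas 2.3.3, numpy 2.4.6 and matplotlib 3.10.9. The model was tested on simulated data.

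Samples were grouped by their labels, which do not say whether mice shared a cage. Replicate numbers were not treated as pairing mice, because deviations of same-numbered mice did not correlate above 0.1 in every pair (-0.0144 to 0.135 for CL and NC, -0.132 to 0.0636 with CL+CX). Values in every mouse were given for genes called in any comparison and for Mki67 and Top2a, and of the other lists up to 4 called genes with the largest difference. Values of Mcm2, Mcm6, Birc5, Cdkn1a and single probe sets of Ccnd2 and Cdc20 were added after they were seen. The genes, the lists and the alternatives were chosen with earlier results of these data known. Alternatives were no filter, a stricter filter, quantile normalization, unscaled signals, an offset of 16, a robust prior with a trend, the methods' test, 2 groups only, a replicate block, each mouse left out, the mean of a gene's probe sets, any probe set called, and the β-actin difference as a covariate. The other array, RT-PCR and histology of the study were not analysed here.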

Additional observations from a re-analysis of the deposited data

Results flagged for a closer look

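Among 51 sets of 5 mice (17 genes in 3 diets), 4 held a mouse whose gap to its nearest neighbour took up most of the range of its group, by Dixon's criterion. Chance flags about 1 in 20 such groups. Mcm2 in CL+CX 4 was lowest at 3.76, against 5.28 in the next mouse, a ratio of gap to range of 0.840. Cdc20 in CL+CX 1 was highest at 5.19, against 4.37, a ratio of 0.802. Rrm2 in NC 1 was lowest at 4.81, against 5.28, a ratio of 0.764. Rrm1 in CL 2 was highest at 5.52, against 4.79, a ratio of 0.749.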

How the results depend on the processing

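With all mice 17 genes were tested, and 5 were called for CL against NC, 1 for CL+CX against CL, 4 for CL+CX against NC and 5 with the 3 diets together. In percent of all probe sets called, these fits gave 12.2%, 3.13%, 9.78% and 15.5%. Below, the percent in brackets is that share under the alternative. For CL against NC the count was 9 with signals as deposited (11.4%), 2 with the methods' test (7.79%), 3 in a fit of 2 groups only (9.24%), 3 with the β-actin covariate (5.60%), 8 with the mean of a gene's probe sets (15.2% of genes) and 8 with any probe set called (16.9% of genes). For CL+CX against CL it was 2 under the stricter filter (7.26%), which tested 9 of the genes and where Tk1 joined Plk2, and 0 without the filter (0.0844%), with signals as deposited (0.398%), in a fit of 2 groups only (0.942%) and with the β-actin covariate (0.00491%), with 0 to 3 genes at an unadjusted p under 0.05. Without the filter all 35 genes were tested. For CL+CX against NC that gave 1 (1.34%), Birc5, which is not among the 17. The count there was 2 with the methods' test (8.64%) and 0 with the β-actin covariate (3.26%, 6 genes at an unadjusted p under 0.05). For the 3 diets it was 3 without the filter (2.36%), of which 2 are among the 17, 3 with the β-actin covariate (7.94%), 8 with signals as deposited (12.5%), 8 with any probe set called (21.2% of genes) and 2 with the methods' test (11.6%). Leaving out each mouse changed which genes passed the filter. It gave 3 (without CL 4) to 10 (without CL 2) for CL against NC, 0 to 1 for CL+CX against CL, 1 to 6 for CL+CX against NC and 2 to 9 for the 3 diets. Without CL 2, 25 genes were tested (18.9%, 14.7% and 22.1% for CL against NC, CL+CX against NC and the 3 diets), and 5, 5 and 7 of the calls were among the 17. Over all mice left out, calls among the 17 ran from 3 to 6, 0 to 1, 1 to 5 and 2 to 7. The cause of the other shifts was not tested. Signals as deposited moved the median log2 difference of all probe sets between CL and NC to 0.23, against -0.09 after scaling, and the share of calls that were higher in CL to 96.2%, against 48.2%. The replicate block gave 5, 1, 5 and 5 genes, with Mcm3 added for CL+CX against NC (0.57, adjusted p = 0.0358), and mice correlated best with their own number in 3 of 5 cases for CL and NC and in 0 of 5 with CL+CX. Among 1302 comparisons of a gene under an alternative, 67 lost and 23 gained a call. None of the 10 called results reversed, and Tk1 for CL against NC kept its call in all 26. Differences that were not called could change sign, as for Cdk4 in CL against NC, at -0.06 without CL 2 and 0.12 with all mice. Signals near the array median limit what could be seen of the 18 dim genes.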
